A study of Homo sapiens with 8 samples.

Results

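The BCL2 family of cell death regulators was examined at 5 genes: BCL2, MCL1, BCL2L1, BCL2A1 and BCL2L11. Each gene was represented by a fixed hg19 window, and every deposited peak that overlapped a window was taken. The windows were chromosome 18 from 60760001 to 61020000 for BCL2 (260 kb), chromosome 1 from 150520001 to 150580000 for MCL1 (60 kb), chromosome 20 from 30220001 to 30340000 for BCL2L1 (120 kb), chromosome 15 from 80220001 to 80300000 for BCL2A1 (80 kb) and chromosome 2 from 111600001 to 112000000 for BCL2L11 (400 kb). They held 450 of the 224694 peaks in the 6 lists, with 167 at BCL2, 48 at MCL1, 33 at BCL2L1, 65 at BCL2A1 and 137 at BCL2L11. The study profiled 3 proteins in untreated GM12878 cells by ChIP-seq, which sequences the DNA fragments that an antibody retrieves from formaldehyde-fixed chromatin. GM12878 is an established lymphoblastoid line of B-lymphocyte origin, and every library came from this 1 line. NIPBL, SMC1A and MED1 were each profiled in 2 libraries, and 2 whole cell extract libraries were pooled as the control of all 6 lists. The labels do not say that replicates were grown separately, and their spread may thus be technical only.

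NIPBL loads cohesin onto chromatin, SMC1A belongs to the cohesin ring that forms DNA loops, and MED1 is a subunit of Mediator, which links enhancer-bound transcription factors to RNA polymerase II. Proteins of the BCL2 family set the threshold for mitochondrial apoptosis. BCL2, MCL1, BCL2L1 (BCL-XL) and BCL2A1 (BFL-1) encode survival proteins that bind and restrain the death effectors, and BCL2L11 encodes BIM, a BH3-only protein that neutralises them and promotes death. The balance between these proteins controls how long B lymphocytes live. In RefSeq gene order the protein-coding neighbours are PHLPP1 and KDSR at BCL2, ADAMTSL4 and ENSA at MCL1, COX4I2 and TPX2 at BCL2L1, MTHFS and ZFAND6 at BCL2A1, and ACOXL and ANAPC1 at BCL2L11. No hg19 gene annotation was used here, so no peak is assigned to a promoter, exon or intron, or to the member gene in place of a neighbour. The sequence under the peaks was likewise not read.

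Reference promoters are shown to give the sequence context of the genes. RefSeq (GRCh38.p14) matched 4 of the 5 genes, and BCL2L1 had 2 starts, of which 1 is shown. The 250 bases before the start are printed 5′ to 3′ on the gene's strand, with the core GGAA of ETS factors on either strand (GGAA or TTCC) in capitals. Whether a deposited peak covers them was not determined, since the builds differ.
BCL2: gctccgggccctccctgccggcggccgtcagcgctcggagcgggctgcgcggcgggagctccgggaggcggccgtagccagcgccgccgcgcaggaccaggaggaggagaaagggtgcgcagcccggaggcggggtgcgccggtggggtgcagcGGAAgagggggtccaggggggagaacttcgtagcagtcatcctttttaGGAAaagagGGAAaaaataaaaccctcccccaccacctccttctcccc
BCL2A1: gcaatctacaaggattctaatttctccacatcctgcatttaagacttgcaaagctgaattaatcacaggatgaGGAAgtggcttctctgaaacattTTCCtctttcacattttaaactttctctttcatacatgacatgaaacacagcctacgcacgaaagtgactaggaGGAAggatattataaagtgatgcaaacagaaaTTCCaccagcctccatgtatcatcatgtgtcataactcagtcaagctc
BCL2L11: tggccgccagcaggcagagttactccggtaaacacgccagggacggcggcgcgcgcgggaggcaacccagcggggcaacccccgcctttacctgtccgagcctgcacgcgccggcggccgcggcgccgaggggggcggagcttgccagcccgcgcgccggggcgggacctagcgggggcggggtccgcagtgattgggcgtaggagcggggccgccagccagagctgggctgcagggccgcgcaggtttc
BCL2L1: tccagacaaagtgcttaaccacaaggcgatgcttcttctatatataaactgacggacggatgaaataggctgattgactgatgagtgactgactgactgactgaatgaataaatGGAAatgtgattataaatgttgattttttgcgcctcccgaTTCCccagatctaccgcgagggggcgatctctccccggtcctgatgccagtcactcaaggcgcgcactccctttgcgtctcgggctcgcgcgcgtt
These promoters differed in composition. G and C made up 70% of the BCL2 promoter, 76.8% of BCL2L11 and 50% of the BCL2L1 promoter shown (60.4% of the other), but only 38.8% of BCL2A1, against a median of 58% over 35116 promoters. The ETS core matched 4 times in BCL2A1, 3 times in BCL2, 2 times in the BCL2L1 promoter shown, and 0 times in BCL2L11 and the other BCL2L1 start, while 92.7% of all promoters had a match. The 5 letters CCCTC of the CTCF core, on either strand, matched 4 times in BCL2, 1 time in BCL2L11 and 0 times in BCL2A1, with a match in 66.6% of all promoters. They matched 1 time in the BCL2L1 promoter shown and 3 times in the other. An E-box, CANNTG, was found in BCL2A1 alone (1 match), against 61.8% of all promoters. Letters resembling an NF-kappaB site matched 4 times in BCL2L11 and 2 times in BCL2, with a match in 54.4% of all promoters. They matched 0 times in BCL2A1, in the BCL2L1 promoter shown and in the other BCL2L1 start. These are letter matches in this window and no evidence of binding.

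All 5 windows held more peaks per Mb than the lists as a whole, and BCL2L1 held the fewest NIPBL peaks for its length. Peaks in the 920 kb in replicates 1 and 2 numbered 66 and 51 with NIPBL antibody, 75 and 94 with SMC1A and 53 and 111 with MED1. The density of each list was taken between the outermost peaks of any of the 6 lists on each of chromosomes 1 to 22 and X. Relative to it, window peaks were 9.85 and 10.6 times as dense for NIPBL, 4.24 and 4.40 times for SMC1A, and 9.34 and 7.87 times for MED1. NIPBL peaks were 20.6 and 26.3 times as dense in the BCL2A1 window, 22.9 and 19.1 times at MCL1, and 11.6 and 13.3 times at BCL2. They were 6.18 and 7.18 times as dense at BCL2L11, and 4.57 and 1.595 times at BCL2L1. The BCL2L1 values rest on 4 peaks in replicate 1 and a single peak in replicate 2. BCL2A1 and MCL1 overlap in this order within their replicates, while BCL2, BCL2L11 and BCL2L1 follow as separate steps. SMC1A density varied less, from 2.51 at BCL2L1 to 6.30 at BCL2. The windows were placed around genes, whereas the list density includes stretches without genes.

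**Figure D1:**
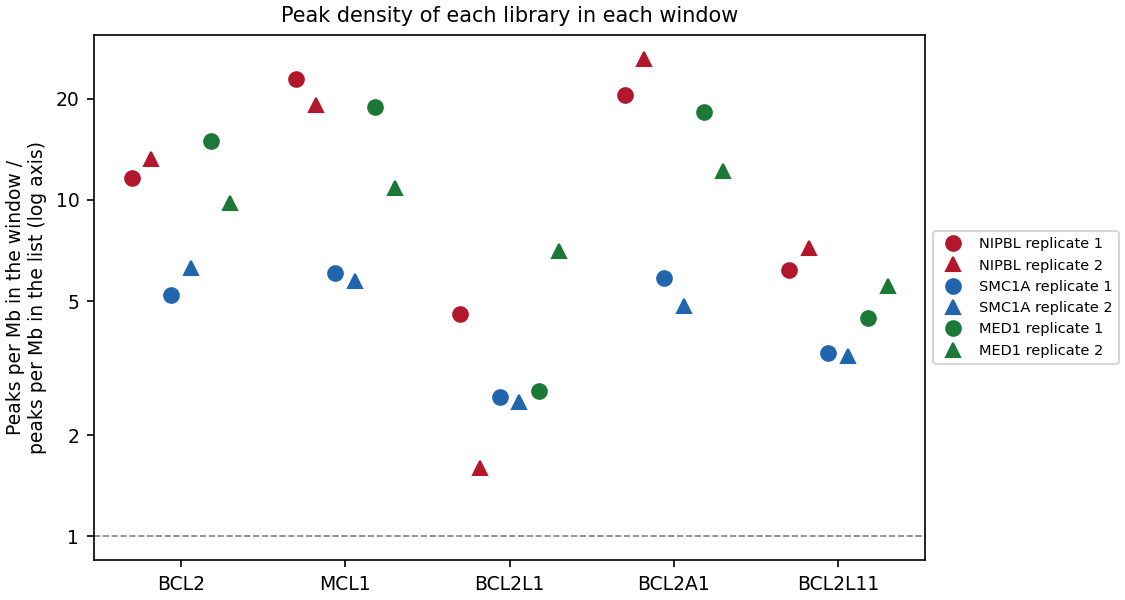
Peak density of each library in each of the 5 windows, as peaks per Mb in the window divided by peaks per Mb in its list (log axis); colours are antibodies, circles replicate 1 and triangles replicate 2, and the dashed line marks equal density. NIPBL sits between 19.1 and 26.3 at MCL1 and BCL2A1 and at 4.57 (4 peaks) and 1.595 (1 peak) at BCL2L1.

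Peaks covered 4.04% and 2.51% of the windows in the NIPBL libraries, a mean of 3.28% ± 1.08 (SD, n = 2). SMC1A peaks covered 3.64% and 4.96% (mean 4.30% ± 0.932, SD, n = 2) and MED1 peaks 4.01% and 9.19% (mean 6.60% ± 3.66, SD, n = 2). The MED1 replicates lay further apart than the means of any pair of antibodies, so no antibody stood apart. None of the 3 pairs of antibodies differed in a two-sided exact permutation test over libraries (p = 0.667 and Benjamini-Hochberg adjusted p = 0.667 in each), and 2 libraries against 2 cannot give less than 0.333. MED1 minus SMC1A was 2.30 points, and -0.289 without MED1 replicate 2.

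Recurrence between replicates followed that of the lists. Of NIPBL peaks in the windows, 38 of 66 in replicate 1 overlapped a peak of replicate 2, or 57.6% against 55.6% for the whole list, and 41 of 51 the other way, or 80.4% against 79.3%. For SMC1A it was 67 of 75 (89.3%, list 92.0%) and 63 of 94 (67.0%, list 75.6%). For MED1 it was 52 of 53 (98.1%, list 99.0%) and 39 of 111 (35.1%, list 33.5%), so MED1 replicate 1 was nested in a longer list here. A region below is the merge of overlapping peaks of both replicates of an antibody, and the windows held 37 NIPBL, 62 SMC1A and 39 MED1 regions.

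SMC1A regions in the windows held NIPBL more often than SMC1A regions at large, while the other shares lay near the background. NIPBL was present at 27 of 62 SMC1A regions, or 43.5% (exact Clopper-Pearson 95% interval 31.0 to 56.7), against 14.3% over chromosomes 1 to 22 and X. BCL2 (12 of 23), MCL1 (4 of 5) and BCL2A1 (5 of 6) carried this share, and the intervals of BCL2L11 (6 of 22) and BCL2L1 (0 of 6) included the background. The share ran from 39.4% to 56.5% with 1 NIPBL or SMC1A library left out. The background was not recomputed for these settings, so they do not show whether the difference from it persists. Of the 37 NIPBL regions, 29 overlapped MED1, or 78.4% (61.8 to 90.2) against 70.2%, and 25 overlapped SMC1A, or 67.6% (50.2 to 82.0) against 62.4%. NIPBL was present at 23 of 39 MED1 regions, or 59.0% (42.1 to 74.4) against 49.3%. The background lay inside the interval of these 3 shares. Without MED1 replicate 1, NIPBL was present at 27.9% (31 of 111) of all MED1 replicate 2 peaks, recurring or not. The 49.3% does not apply to that share, and no background was computed for it. With the same number of top peaks from every list, SMC1A lay at 21.2% of NIPBL regions, a setting that removes most SMC1A peaks. Intervals cover counting error only and treat neighbouring regions as independent. The background shares were taken over whole chromosomes and not around genes. They were not matched to the windows for the density of NIPBL peaks, whose part in the 43.5% was not tested.

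Merging the overlapping peaks of all 6 lists gave 135 sites in the windows. A peak of every library was found at 20 sites, or 14.8%, against 5.7% of the 92867 sites of the series. These 20 comprised 6 at BCL2, 4 at MCL1, 5 at BCL2A1, 5 at BCL2L11 and 0 at BCL2L1. Leaving out 1 library relaxes this requirement, so the count cannot fall. It gave 20 to 24 such sites, or 14.8% to 17.8%, against 5.70% to 7.05% of all sites in these settings. Both SMC1A libraries without any NIPBL or MED1 peak marked 11 sites, or 8.15%, against 36.7% of all sites, and these lay at BCL2L11 (6), BCL2 (3) and BCL2L1 (2). MED1 replicate 2 alone marked 38 sites, or 28.1%, against 16.2%, and 19 of them were at BCL2. That library accounts for the longer MED1 list, so those sites have no replicate. Clusters, taken as 2 or more regions no further than 12.5 kb apart, held 29 of the 37 NIPBL regions, or 78.4%, against 55.1% of all NIPBL regions. BCL2 contributed 13 of its 14 regions, MCL1 5 of 5, BCL2A1 7 of 8, BCL2L11 4 of 9 and BCL2L1 0 of 1. The 55.1% was likewise not matched for the density of NIPBL regions.

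**Figure D2:**
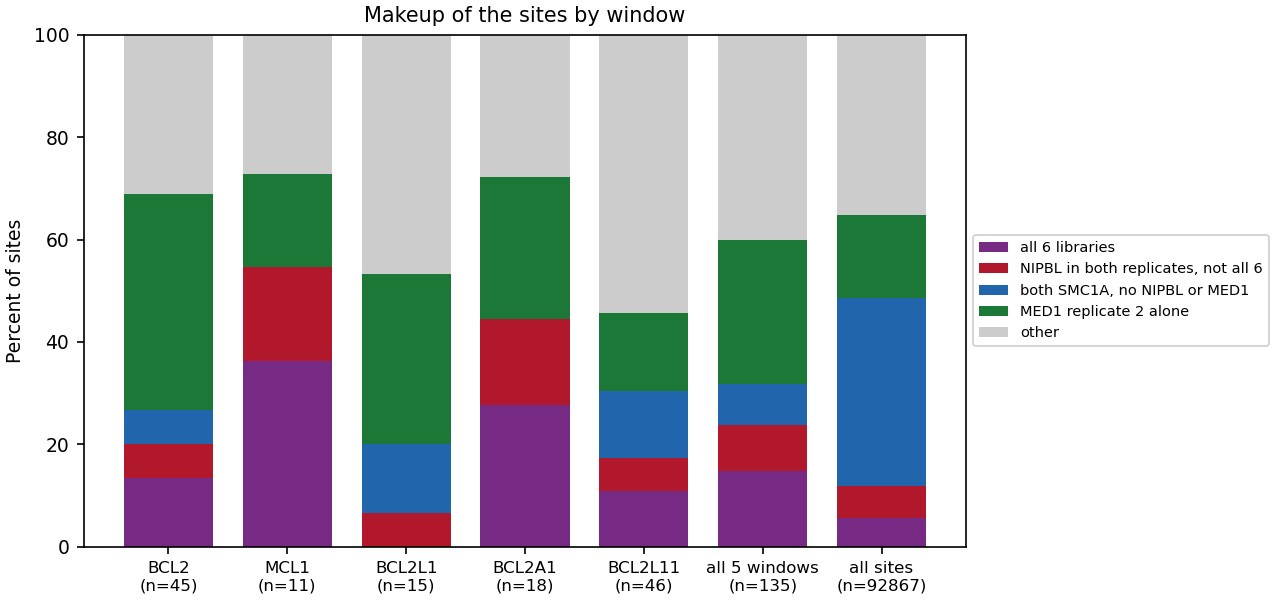
Makeup of the sites in each window, in the 5 windows together and over the series, in percent of sites, with the number of sites under each bar; classes do not overlap and the red class leaves out sites with all 6 libraries. Sites with all 6 libraries make up 36.4% at MCL1, 27.8% at BCL2A1 and 0% at BCL2L1, against 5.7% over all sites, where SMC1A-only sites make up 36.7%.

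**Figure D3:**
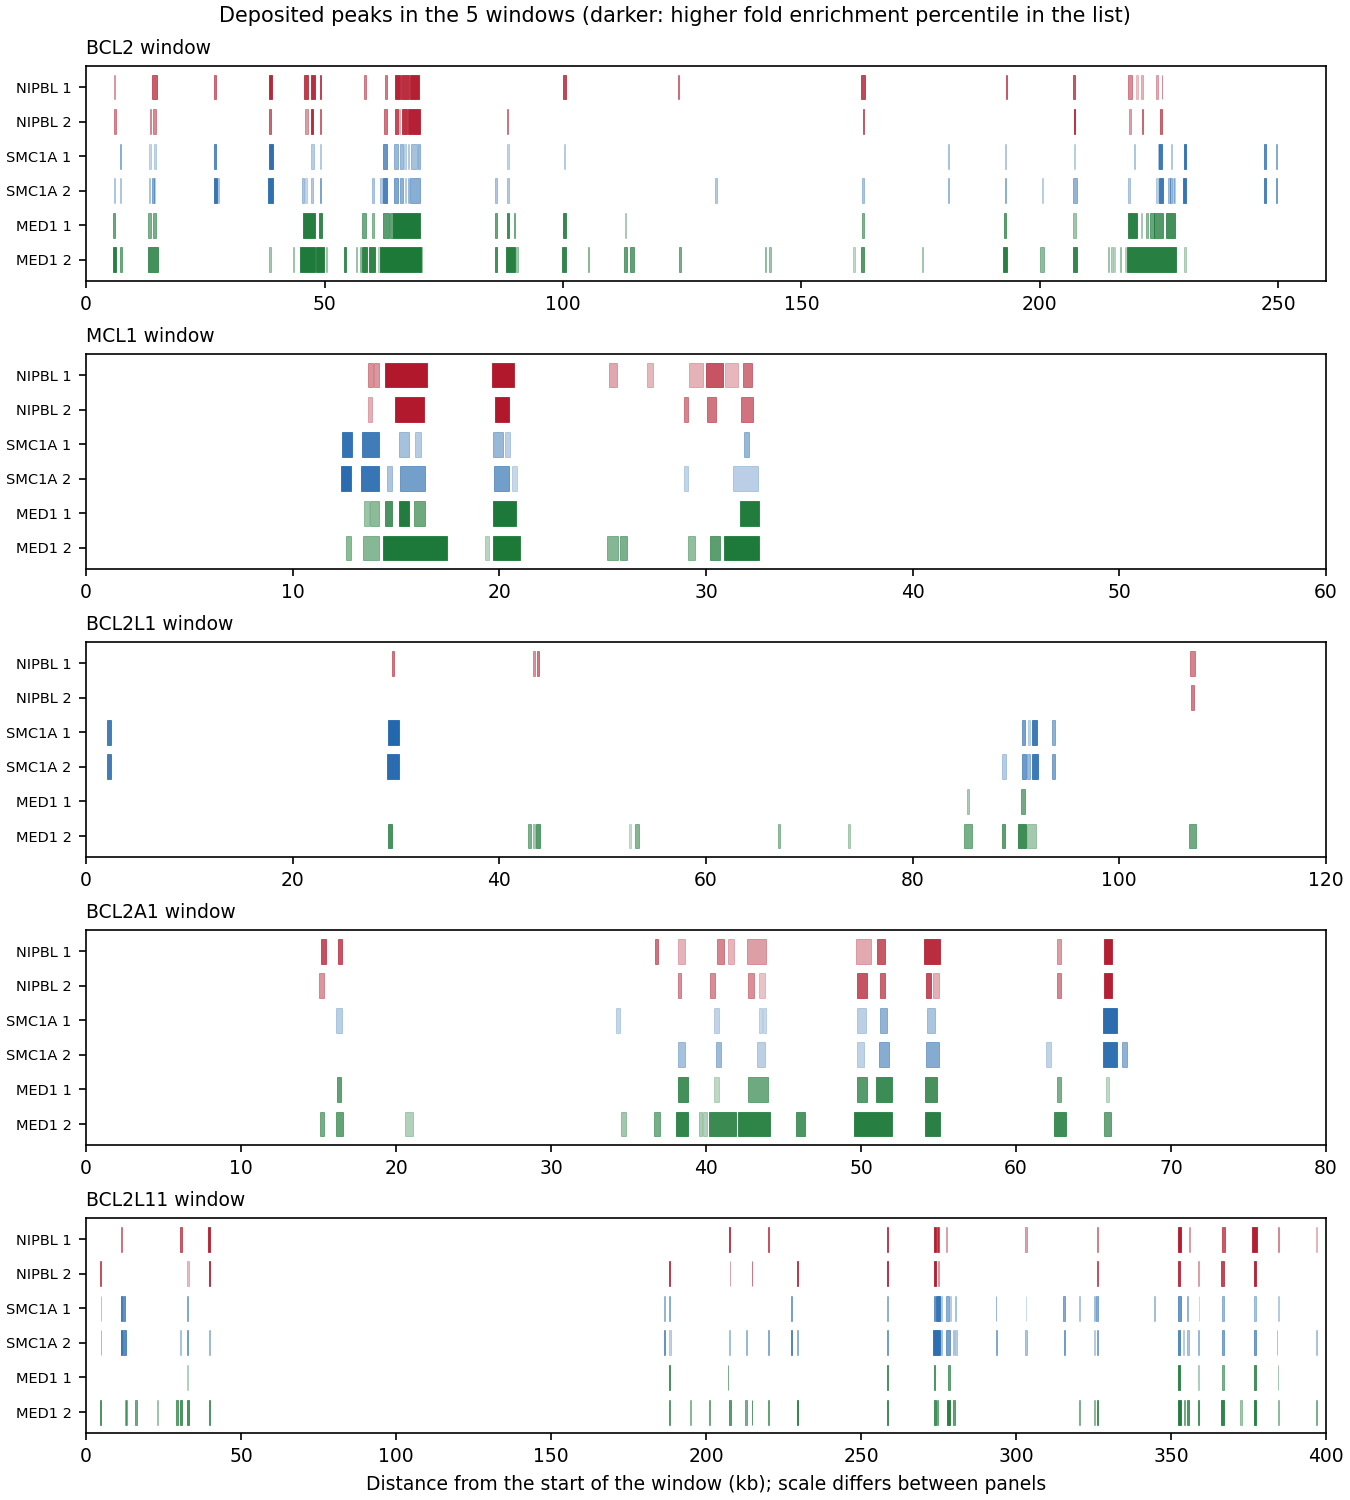
Every deposited peak in the 5 windows, 1 row per library (antibody and replicate number), drawn to scale by distance in kb from the start of the window; darker bars have a higher percentile of fold enrichment within the list. The long MED1 bars at BCL2 near 62 and 218 kb, the dark NIPBL bars at MCL1 near 14 and 20 kb, and the empty 146356 bp of the BCL2L11 window can be seen.

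Peak strength is given below as the authors' deposited fold enrichment at the summit, which is used within a list, together with its rank or percentile in that list. The pileup of fragments at each summit was solved from the fold enrichment and the p-value. It was at least 12 to 16 fragments in the 6 libraries, with medians of 25 to 32, so summits with fewer fragments are not among the listed peaks of the windows. Bracketed ranges are exact 95% Poisson intervals of the pileup on the fold scale, and cover counting error in the ChIP library only. Error of the control estimate is left out, and sites were picked by these same fold enrichments. Intervals that do not overlap are therefore no test between sites.

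MCL1, which encodes a short-lived survival protein, carried the strongest NIPBL of the family. All 11 of its sites lay between 150532330 and 150552558, and the rest of the window held no peak. The strongest, from 150539642 to 150540975, had NIPBL fold enrichments of 16.2 (13.2 to 19.6) and 12.9 (10.1 to 16.2) in replicates 1 and 2, on summits of 103 and 70 fragments. It ranked 8 of 21422 and 20 of 15357 in the NIPBL lists. Its intervals lay above those of the strongest site of every other window in both libraries, the nearest being 6.13 to 10.2 in replicate 1 and 5.27 to 9.88 in replicate 2, both at BCL2L11. MED1 there was 12.2 and 24.6 (ranks 225 and 269), while SMC1A was 5.08 and 7.72, at percentiles of 28.3 and 51.1. The second site, from 150534372 to 150537472, had NIPBL of 13.2 and 10.6 (ranks 34 and 83) beside MED1 of 8.53 and 22.7, with SMC1A at 4.36 and 7.38. MED1 replicate 2 covered it with 1 peak of 3101 bp and MED1 replicate 1 with 3 peaks of at most 524 bp. Strong NIPBL and MED1 thus stood on SMC1A of low to middle rank at both sites.

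Strong SMC1A lay beside these sites and not on them. From 150532330 to 150532887, SMC1A was 22.9 and 30.3 (percentiles 88.9 and 94.9), with no NIPBL peak and a MED1 peak of 4.13 in replicate 2 alone. From 150533326 to 150534184, SMC1A was 18.7 and 22.8 with NIPBL of 3.40 and 3.11, at percentiles of 30.1 and 12.05. The fourth site with a peak of all 6 libraries, from 150550888 to 150552558, had MED1 of 8.44 and 18.4 (percentiles 96.1 and 98.4) with NIPBL of 3.78 and 4.01 (percentiles 46.7 and 47.4). Here MED1 was high and NIPBL was near the middle of its lists.

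BCL2, the founding survival gene of the family, had the broadest MED1 signal. MED1 overlapped 13 of its 14 NIPBL regions, or 92.9% (exact interval 66.1 to 99.8), which includes the 70.2% of all NIPBL regions. Both sites over 5000 bp among the 135 lay in its window, against 0.174% of all sites. The first, on chromosome 18 from 60821709 to 60830139 (8431 bp), was 1 MED1 peak in replicate 2, with a fold enrichment of 24.4 (21.1 to 28.0). In replicate 1 it held 3 peaks up to 5625 bp wide and reached 11.8 (9.74 to 14.1), ranks 279 and 249 in replicates 2 and 1. The MED1 intervals of this site and of the strongest MCL1 site overlapped in both replicates. Within it stood 4 and 5 NIPBL peaks, the highest at 7.58 and 6.999 (percentiles 96.5 and 94.5), and 7 SMC1A peaks in each replicate, the highest at 10.6 and 16.0 (percentiles 57.7 and 74.3). The second wide site, from 60978380 to 60988538 (10159 bp), was again 1 MED1 peak in replicate 2 (11.0), but 6 peaks of at most 1838 bp in replicate 1 (highest 6.54). NIPBL was weaker there, with 5 and 3 peaks reaching 3.81 and 4.19, while SMC1A reached 19.0 and 20.2. The first site passes 5000 bp by the MED1 peak of either replicate, while the second does so by MED1 replicate 2 alone.

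NIPBL regions at BCL2 gathered in 3 runs of 3 or more. They comprised 4 regions from 60798301 to 60809330, 3 from 60822427 to 60829963 and 4 from 60966990 to 60985724. A site in the first run, from 60804885 to 60808028, had NIPBL of 5.71 and 6.02, MED1 of 7.49 and 18.0 (ranks 1039 and 740) and SMC1A of 3.51 and 3.98, at percentiles of 9.50 and 18.0. The strongest SMC1A of the window, from 60798229 to 60799214, was 24.6 and 26.3 with NIPBL of 6.12 and 4.17 and a MED1 peak of 3.65 in replicate 2 alone. SMC1A of 22.02 and 23.2 from 60990007 to 60990688, beside the second wide site, had no NIPBL peak. From 61007053 to 61007492, SMC1A of 13.3 and 16.1 had neither partner.

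BCL2A1, a survival gene known as a target of NF-kappaB in lymphocytes, combined dense NIPBL with moderate fold enrichments. Of its 8 NIPBL regions, 7 overlapped MED1, or 87.5% (exact interval 47.3 to 99.7) against 70.2% of all NIPBL regions, and 5 overlapped SMC1A, or 62.5% (24.5 to 91.5) against 62.4%. Of the 8, 7 formed 1 cluster of 28013 bp from 80258196 to 80286208. The cluster ended at the strongest site, on chromosome 15 from 80285643 to 80286548. NIPBL there was 7.33 (5.56 to 9.51) and 7.23 (5.35 to 9.56), ranks 882 and 712, and SMC1A was 27.7 and 25.7, at percentiles of 94.3 and 90.8. MED1 was 2.54 and 5.08 at this site, low in its list in replicate 1 (percentile 3.87) and near the middle in replicate 2 (54.8). Within the cluster MED1 was higher and SMC1A lower. From 80274093 to 80275094, MED1 was 4.71 and 9.67 (percentiles 74.7 and 90.4), NIPBL 5.76 and 4.67, and SMC1A 4.08 and 5.81. From 80269544 to 80272003, the strongest and widest MED1 site of the window, MED1 was 5.07 and 10.5 over 2 and 1 peaks, with NIPBL of 4.24 and 4.53. No site in this window was marked by SMC1A without NIPBL and MED1 in both SMC1A libraries.

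BCL2L1, which encodes BCL-XL, had little NIPBL and strong SMC1A. NIPBL gave 4 peaks in replicate 1 and 1 in replicate 2, and a single region recurred, on chromosome 20 from 30326796 to 30327287. Its fold enrichments were 3.59 (2.39 to 5.20) and 3.89 (2.55 to 5.71), at percentiles of 38.4 and 41.7, with no SMC1A peak and a MED1 peak of 4.85 in replicate 2. None of the 6 SMC1A regions overlapped a NIPBL region (0%, exact interval to 45.9), which includes the 14.3% of all SMC1A regions. By fold enrichment, the highest SMC1A of the family in replicate 1 and the second highest in replicate 2 lay here, from 30249099 to 30250266. It was 37.2 (31.9 to 43.0) in replicate 1 and 30.1 (25.9 to 34.8) in replicate 2, ranks 706 of 56510 and 3540 of 68228. In replicate 1 its interval lay just above that of the next site, at BCL2A1 (24.2 to 31.6). In replicate 2 it overlapped that of the first MCL1 site (25.4 to 35.8). Control estimates in replicate 1 were 3.76 at the BCL2L1 site and 7.05 at the BCL2A1 site. Ranked by −log10 p, the BCL2A1 site was the higher in both replicates, at percentiles of 99.0 and 97.6 against 98.3 and 96.5. A NIPBL peak of 3.78 was found at the BCL2L1 site in replicate 1 alone. A second SMC1A group lay from 30310168 to 30312116. SMC1A was strongest at its site from 30311053 to 30312116, at 19.2 and 20.5, with a MED1 peak of 3.60 in replicate 2 alone. At its site from 30310168 to 30310953, SMC1A was 8.24 and 8.68 and MED1 reached 3.80 and 7.17. That MED1 was its highest in this window in each library and the lowest such maximum of the 5 windows. The other MED1 region, at 30304979 to 30305750, had 2.999 and 4.58 and no NIPBL or SMC1A peak. MED1 replicate 2 gave 13 peaks in all, against 2 in replicate 1.

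BCL2L11, the death-promoting member, had the longest window and the longest gap between neighbouring sites. From 111640000 to 111786355, 146356 bp held no peak of any library, and 3.59% of the 92844 gaps between neighbouring sites of the series were at least as long. Between neighbouring sites of the other windows, leaving out the window ends, the longest gaps were 4251 to 26655 bp. Before the gap lay 10 sites over 35439 bp, of which 1 had NIPBL in both replicates and 0 had all 6 libraries. After it lay 36 sites over a longer stretch of 210866 bp, of which 7 and 5 did. By fold enrichment, the median NIPBL percentiles of this window, 61.7 and 72.9, were the highest of the 5. BCL2 was next at 58.4 and 47.3, although the top-ranked NIPBL peaks lay at MCL1. This order was not recomputed by −log10 p, which moved single sites of the BCL2L11 window widely in replicate 1. The percentile went from 62.0 to 31.5 at 111630377 to 111631008, and from 61.8 to 81.7 at 111966268 to 111967396. The highest mean NIPBL percentile of the window was reached on chromosome 2 from 111873364 to 111875463, with folds of 7.68 and 7.30 (percentiles 96.7 and 95.6). These NIPBL summits lay at 111873776 and 111873810, with MED1 of 4.35 and 6.82. The strongest SMC1A of the site, at 21.6 and 26.8, had its summits at 111874775 and 111874781, beside the strong NIPBL. In replicate 1 the SMC1A peak on the strong NIPBL peak was a separate one of 9.63 (percentile 54.1), and the NIPBL peaks under the strong SMC1A were 4.36 and 4.07. From 111952339 to 111953228, NIPBL was 7.99 and 5.75 with the strongest MED1 of the window, 6.15 and 13.2. From 111976130 to 111977606, NIPBL was 7.11 and 6.42 while MED1 was 4.82 and 10.2, and SMC1A 4.23 and 7.60.

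SMC1A regions at BCL2L11 numbered 22, of which 6 held NIPBL, or 27.3% (exact interval 10.7 to 50.2), which includes the 14.3% of all SMC1A regions. A region of neither partner was present at 12. The strongest without a NIPBL region lay before the gap, from 111611112 to 111611481, at 18.6 and 25.8. It had a weak NIPBL peak of 3.63 in replicate 1, on 14 fragments, and no MED1 peak. The widest MED1 peak of this window, at the site from 111877449 to 111878730, was 1088 bp, against 2460 bp at BCL2A1, 3101 bp at MCL1 and 10159 bp at BCL2, all in replicate 2. At BCL2L1 it was 873 bp.

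By rank, SMC1A peaks pooled over the windows were weak for their lists, and those of NIPBL and MED1 lay near the middle. Median percentiles over all window peaks were 21.2 and 24.9 for SMC1A, 47.6 and 47.5 for NIPBL, and 56.6 and 50.7 for MED1, where a whole list has 50 by construction. At BCL2 the SMC1A medians were 9.62 and 16.5, and at BCL2A1 6.72 and 24.6. BCL2L1 was the exception in both replicates, at 63.6 and 54.7. Single windows were low for the other antibodies too, with NIPBL medians of 28.6 in replicate 1 at MCL1 (47.0 in replicate 2) and 42.4 and 33.2 at BCL2A1. MED1 medians were 32.3 in replicate 2 at BCL2 (55.5 in replicate 1) and 32.8 and 42.7 at BCL2L1. At the 22 sites with NIPBL and SMC1A in both replicates, the median SMC1A percentile was 27.2 and 43.6, close to the 24.5 and 39.3 of all such sites. At the 19 sites with SMC1A in both and no NIPBL peak, it was 39.1 and 44.3, against 59.9 and 66.7.

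**Figure D4:**
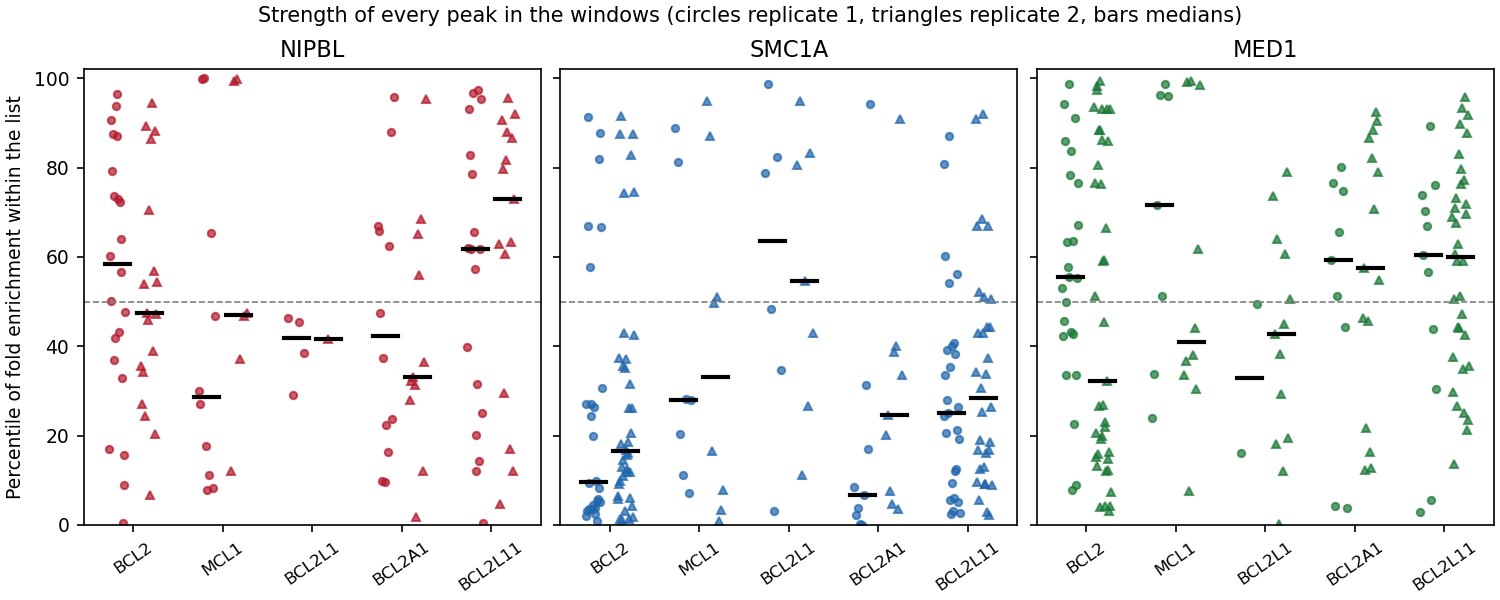
Percentile of fold enrichment within its own list for every peak in the windows, by antibody (panels) and gene, with circles for replicate 1, triangles for replicate 2, black bars for medians and a dashed line at 50. SMC1A medians lie below 50 except at BCL2L1 (63.6 and 54.7), and NIPBL peaks near 100 stand at MCL1.

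Across sites, strength recurred between replicates, and the rank correlation of NIPBL with each partner was positive. Spearman's rho between the replicates of fold enrichment was 0.766 for NIPBL over 32 sites, 0.834 for SMC1A over 52 and 0.762 for MED1 over 39, and 0.641, 0.956 and 0.714 over the sites of the series. NIPBL against MED1 gave 0.417 and 0.325 in replicates 1 and 2 over 24 sites, where all sites gave 0.402 and 0.417. NIPBL against SMC1A gave 0.293 and 0.3999 over 22 sites, where all sites gave 0.109 and 0.172. MED1 against SMC1A gave 0.116 and -0.0446 over 27 sites, where all sites gave 0.1195 and 0.145. These values are descriptions without a test, and their points share the libraries and the control. At the 20 sites with all 6 libraries, the strongest NIPBL and MED1 summits were a median of 46.5 and 67 bp apart, against 50 and 42 bp over all such sites. The NIPBL and SMC1A summits were 93 and 72.5 bp apart, against 85 and 73 bp. Distances reached 6689 bp in the wide BCL2 sites, where the strongest peaks of a library can lie at either end.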

How the data were processed

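ChIP-seq of NIPBL, SMC1A and MED1 was analysed in 6 libraries of GM12878 cells. Per the submitters' processing notes, Trimmomatic 0.33, BWA 0.7.12 and MACS2 2.1.0 were used with build hg19. Run options, not given in the sources used here, decide which peaks are listed. Each list was made by the authors, per the labels, from 1 library with 2 pooled whole cell extracts as control. The deposited fold enrichment is a ratio of the summit to the local control estimate. Evidence for each summit is deposited as −log10 of its p-value and of its q-value. The deposited score repeats −log10 q and was not used. The deposited summit offset gave summit positions.

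Chromosomes 1 to 22 and X were used, with 1-based positions. An overlap of 1 bp counted as shared. The pileup at each summit was solved as the whole number that returns both the deposited fold enrichment and p-value, assuming an unscaled ChIP library, and it did so within 0.01 on the −log10 scale for every window peak. The overlap and pileup steps were tested on simulated data. For each window and antibody, the named sites were the 2 sites with the highest mean percentile of fold enrichment over both replicates, and the widest MED1 peak of each window (22 sites in all). Other sites named in the text were chosen after their values were seen. The members and lists were chosen with earlier results of these data known. Covered percent was compared by exact permutation over libraries. Other BCL2 family genes, whose positions need an hg19 annotation, were not analysed here. Python 3.11.15, pandas 2.3.3 and SciPy 1.17.1 were used.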

Additional observations from a re-analysis of the deposited data

How the results depend on the processing

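Of 82 recomputed values, 64 kept their sign (differences) or stayed within the counting interval (shares) or 1.5 times the main count (counts), 16 moved further and 2 turned. The 16 include the median percentile of the named sites, which is none of these kinds of value. The 64 include the leave-one-out counts of sites with a peak in every library, which cannot fall. Differences in covered percent that kept their sign still moved widely, with MED1 minus NIPBL from 0.73 to 5.91 points and SMC1A minus NIPBL from 0.254 to 1.78 points when 1 library was left out. SMC1A regions fell from 62 to 40 with −log10 q of at least 5 and to 12 with the same number of peaks from each list, which removes SMC1A peaks by construction. That last setting put SMC1A at 21.2% of NIPBL regions and turned the covered percent of SMC1A minus NIPBL from 1.02 to -1.92 points. Regions found in either replicate, added after seeing the data, came to 75 with NIPBL, 101 with SMC1A and 112 with MED1 antibody, with MED1 at 92.0% of NIPBL regions and NIPBL at 57.4% of SMC1A regions.

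With 1 library of an antibody left out, its regions no longer had to recur and were the peaks of the remaining library. They numbered 51 and 66 with NIPBL, 75 and 94 with SMC1A and 53 and 111 with MED1 antibody, which restates the peak counts. The leave-one-out shares that follow rest on such peaks, and no background was computed for them. MED1 lay at 63.6% to 100% of NIPBL regions, SMC1A at 56.1% to 86.5% of NIPBL regions, and NIPBL at 27.9% to 76.9% of MED1 regions. MED1 minus SMC1A in covered percent ran from -0.289 to 4.89 points, where MED1 replicate 2 set the sign. Ranked by −log10 p, the median percentile of the named sites was 86.5 in place of 80.9. With the replicate number as a block, the differences of 3.32, 1.02 and 2.30 points had exact sign-flip p of 1, 1 and 0.5, and 2 pairs cannot give less than 0.5. The numbers are shared labels only, so no pairing was assumed. The listed peaks of the windows had summits of at least 12 fragments.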
